A study of Mus musculus with 39 samples.

Results

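Astrocytes of the nucleus accumbens (NAc), a ventral striatal region of reward and motivation, were compared with those of the prefrontal cortex (PFC) in control mice. The comparison takes the 7 libraries titled as control NAc and the 6 titled as control PFC, 13 of the 39 RNA sequencing libraries of the series, with the share of unspecific read cover in each library as a covariate. The series follows male mice through chronic social defeat stress, in which a mouse repeatedly meets an aggressor, and the labels sort defeated mice into susceptible and resilient ones. The other 26 libraries are 14 of susceptible mice (8 NAc, 6 PFC) and 12 of resilient mice (7 NAc, 5 PFC). All groups are male, and no strain, age or transgene is given for any of them in the labels. In every library the cells were taken with magnetic beads against ACSA-2, an epitope of the astrocyte surface protein encoded by Atp1b2, from freshly punched tissue, and total RNA went into a strand-specific kit for picogram input. The labels' protocol names NAc tissue for all libraries while the tissue label of 17 reads PFC, an abbreviation read here as prefrontal cortex. Each library has a mouse number of its own, and nothing in the labels settles whether an NAc and a PFC library with consecutive numbers come from 1 animal. The p-values of the main gene tests rest on a spread between libraries that was estimated over all 39 libraries in 6 groups.

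Astrocytes clear glutamate and potassium, couple through gap junctions, supply metabolites and secrete proteins that act on synapses. They arise from regionally patterned progenitors, those of the cortex from the pallium and those of the striatum largely from the subpallium, and in mice they keep region-dependent gene expression as adults. Crym, which encodes the thyroid hormone binding protein mu-crystallin, marks striatal astrocytes, and Chrdl1, a secreted antagonist of bone morphogenetic proteins that acts on synapse maturation, is enriched in cortical astrocytes. A bead sort also carries over fragments of neurons and oligodendrocytes, which differ between striatum and cortex on their own account.

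Libraries held 941450 to 21868887 counts in NAc (median 14048604) and 5801113 to 28212160 in PFC (median 15282488). Counts cover whole gene spans, introns included, and unspecific cover was read from 1481 olfactory, vomeronasal and trace-amine receptor genes, as a percent of the level expected if counts lay evenly over all genes. It was 53.1 ± 9.22% in NAc libraries and 50.4 ± 17.8% in PFC libraries (SD, n = 7 and 6), a difference of 2.71 percentage points (two-sided exact permutation test, p = 0.730). PFC control replicates 1 and 2 stood apart, with a background of 36.8% and 21.7% against 53.3 to 66.4% in the other 4 PFC libraries. In the same libraries the mean log2 CPM (counts scaled to library size) of 20 pan-neuronal genes was 6.70 and 7.66, against 5.07 to 5.79 in the other PFC libraries and 4.74 to 5.54 in all NAc libraries. Results are therefore also given without these libraries. The astrocyte label held in both regions: 41 of 42 astrocyte identity genes had a mean level at least 2 times that of the receptor genes, and Atp1b2, the target of the sort, averaged 40.7 FPKM in NAc and 38.7 FPKM in PFC (fragments scaled to gene span and library size). Markers of other cells were present as well, with 21 of 23 oligodendrocyte and 15 of 20 pan-neuronal genes above that level.

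**Figure D1:**
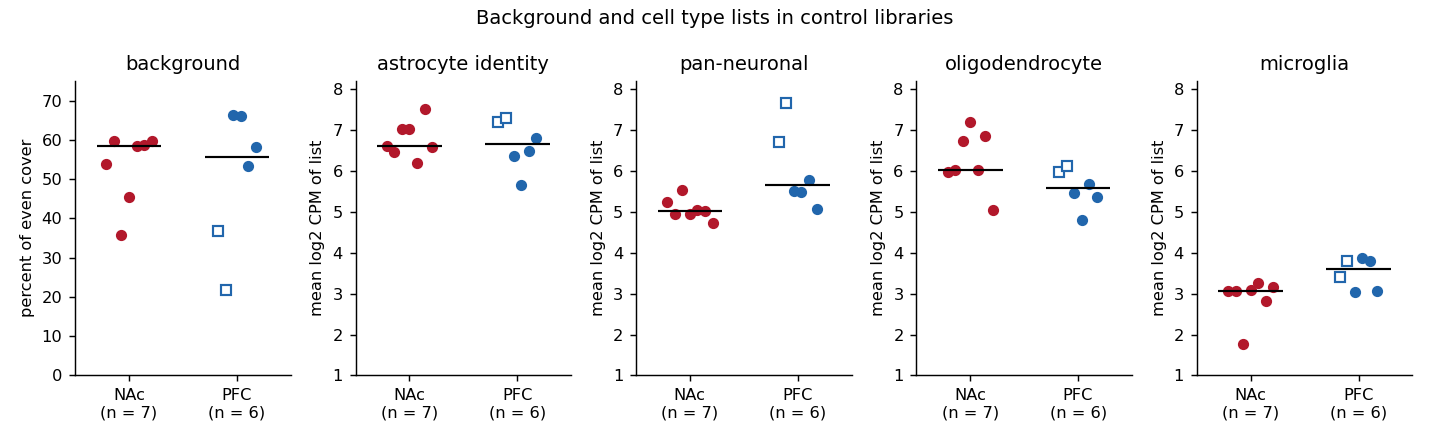
Background cover (percent of even cover) and the mean log2 CPM of 4 cell type lists in each control library, NAc left and PFC right; points are libraries, lines are medians, and open squares are PFC control replicates 1 and 2. These 2 libraries have the lowest PFC background (36.8% and 21.7%) and the highest pan-neuronal level (6.70 and 7.66), while the astrocyte level overlaps between regions.

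Of 38171 genes tested, 297 differed between NAc and PFC control libraries (edgeR quasi-likelihood test with Benjamini-Hochberg adjustment, adjusted p under 0.05), which is 0.778% of the genes, and 3239 (8.49%) had an unadjusted p under 0.05. In NAc, 84 were higher (0.22%) and 213 lower (0.558%). Fitted alone with the same covariate, the 13 control libraries gave 101 such genes of 35323 tested. To separate astrocyte genes from those of carried-over cells, each gene was placed with the one of 7 cell type lists whose level it followed across the 39 libraries after group means and background were removed. This asked for a Pearson correlation of at least 0.5 that exceeded the next list's by 0.1. Among genes placed with the astrocyte list, 10 were higher and 2 lower in NAc, 0.587% of 2043 genes, near the share over all genes. Of 1300 genes placed with the pan-neuronal list, 168 were lower in NAc and 0 higher, a share of 12.9%. Of 764 genes placed with the oligodendrocyte list, 39 were higher and 0 lower, a share of 5.10%. A further 6 called genes, all lower in NAc, were placed with microglia, 0.110% of 5478 genes, and 35 higher and 37 lower genes with no list, 0.261% of 27541, both below the share over all genes. Genes of one placement vary together by construction, so their calls are not independent of each other. Placement returned 39 of 42 astrocyte, 18 of 20 pan-neuronal and 22 of 23 oligodendrocyte list members to their own list, but only 10 of 18 microglial, 6 of 12 endothelial, 3 of 12 pericyte and 0 of 12 oligodendrocyte precursor genes.

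**Figure D2:**
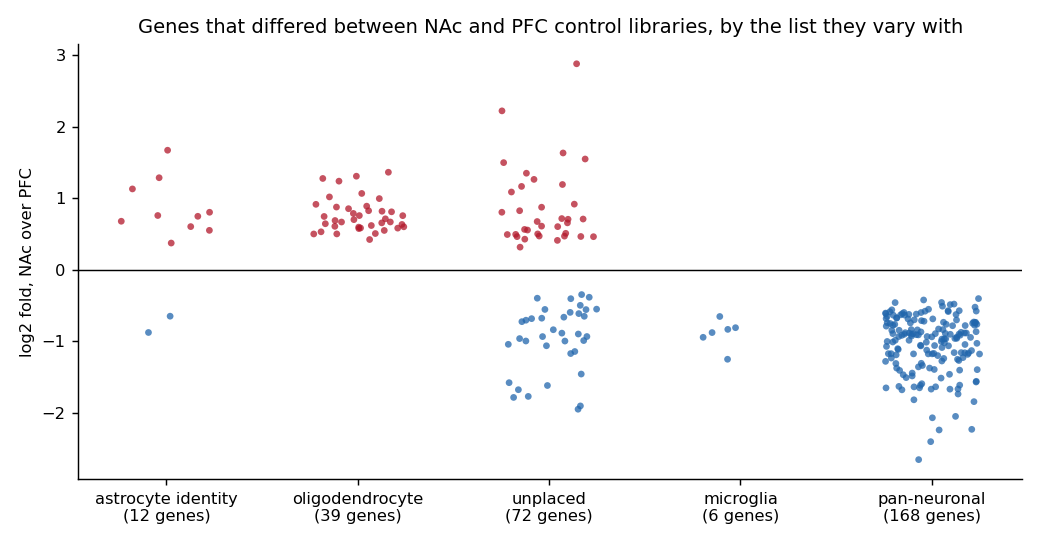
The log2 fold of NAc over PFC for the 297 genes that differed in control mice, grouped by the cell type list each gene varies with; each point is a gene, red higher and blue lower in NAc. All 168 genes placed with the pan-neuronal list are lower and all 39 placed with the oligodendrocyte list are higher, while the 12 placed with astrocytes lie on both sides.

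Crym (chr7:120186380-120202111, mm10) showed the largest rise of any named gene. Its level was lowest at 38.2, median 114 and highest 257 CPM in NAc libraries, against 14.0, 15.6 and 27.3 CPM in PFC libraries. Each NAc library lay above each PFC library, and 5 of the 6 PFC libraries fell within 14.0 to 16.5 CPM. The log2 fold change was 2.88 ± 0.41 (SE, adjusted p = 0.00199). The highest PFC value belonged to PFC control replicate 2, the library with the lowest background and the highest pan-neuronal level. Crym followed the astrocyte list with a correlation of 0.404 across libraries, below the limit for placement, so the files do not tie its difference to astrocytes by co-variation. Without PFC control replicates 1 and 2 the log2 fold change was 2.91, with an unadjusted p of 2.61e-06 and an adjusted p of 0.103. Complement C4b (chr17:34728380-34743882), likewise unplaced, was at 35.5, 40.0 and 72.3 CPM in NAc (lowest, median, highest) against 13.9, 14.5 and 20.1 CPM in PFC, again without overlap. Its log2 fold change was 1.55 ± 0.31 (adjusted p = 0.0152). C4b shares reads with its near-identical neighbour C4a, so its level is uncertain. No overlap of CPM between the groups was found for 117 of the genes tested (0.307%).

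**Figure D3:**
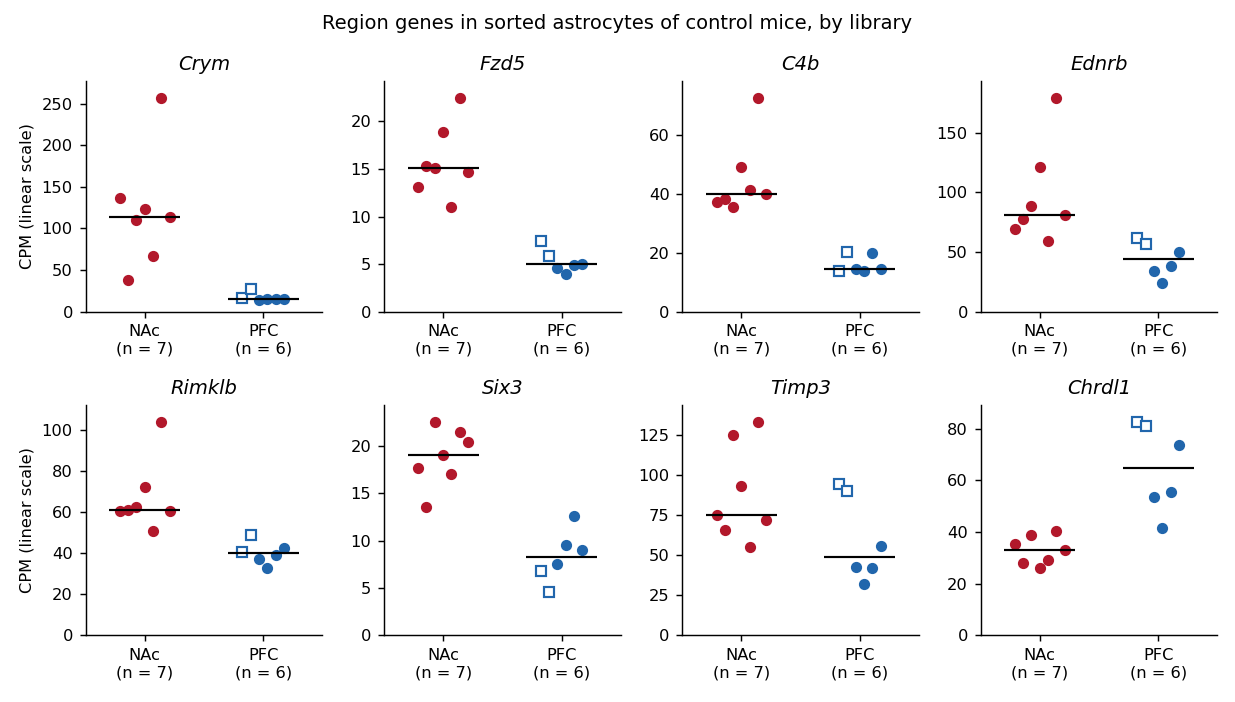
CPM on a linear scale in each control library for 8 genes, NAc left (n = 7) and PFC right (n = 6); lines are medians and open squares are PFC control replicates 1 and 2. Crym, Fzd5, C4b, Rimklb and Six3 are higher and Chrdl1 lower in NAc without overlap, while Ednrb and Timp3 overlap.

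The receptor genes Fzd5 and Ednrb were higher in NAc, both placed with astrocytes. Fzd5 (chr1:64730558-64737751), a Frizzled receptor for Wnt ligands, was at 11.0, 15.0 and 22.4 CPM in NAc against 4.01, 5.00 and 7.44 CPM in PFC. The regions did not overlap, and the log2 fold change was 1.67 ± 0.29 (adjusted p = 0.00516). Ednrb (chr14:103814625-103844402), the endothelin B receptor, which in mice is strong in astrocytes, was at 59.4, 80.7 and 179 CPM in NAc against 23.7, 44.2 and 61.7 CPM in PFC. Here 1 NAc library lay below the highest PFC library, and the log2 fold change was 1.29 ± 0.29 (adjusted p = 0.0250). Ednrb followed the astrocyte list closely across libraries (r = 0.941 over 39 libraries, which share depth and background), Fzd5 less so (r = 0.571). Over the whole list of 25 astrocyte receptors, Ednrb was the 1 that rose and Adrb1, the beta-1 adrenoceptor, the 1 that fell. Adrb1 was at 2.15, 6.33 and 9.69 CPM in NAc against 6.83, 11.1 and 39.0 CPM in PFC (log2 fold change −0.81 ± 0.19, adjusted p = 0.0272) and varied with the microglial list. The median log2 fold change of the receptor list was −0.02, against 0.00 over all genes.

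The promoter windows of Ednrb and Fzd5 are shown because both receptors move with the astrocyte list and with region while their promoters differ in composition. They are RefSeq sequences on GRCm38.p6, 250 bases before to 50 after the start, both on the minus strand, at chr14:103843652-103843951 and chr1:64737701-64738000. Capitals mark TGACG, one side of the element that CREB binds, and the GC box GGGCGG, each read on both strands.
Ednrb: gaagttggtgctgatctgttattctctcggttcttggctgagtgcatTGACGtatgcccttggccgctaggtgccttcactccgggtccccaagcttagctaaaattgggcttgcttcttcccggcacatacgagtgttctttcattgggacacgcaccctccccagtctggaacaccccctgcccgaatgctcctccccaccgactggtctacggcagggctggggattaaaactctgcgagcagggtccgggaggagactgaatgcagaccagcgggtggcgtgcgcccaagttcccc
Fzd5: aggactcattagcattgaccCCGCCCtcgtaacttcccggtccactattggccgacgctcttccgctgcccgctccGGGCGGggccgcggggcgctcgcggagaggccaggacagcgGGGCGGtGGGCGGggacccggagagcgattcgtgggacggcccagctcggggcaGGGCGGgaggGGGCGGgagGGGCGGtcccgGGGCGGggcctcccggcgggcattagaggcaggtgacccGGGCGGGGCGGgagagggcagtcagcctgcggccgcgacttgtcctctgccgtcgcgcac
The Ednrb window holds TGACG once and no GC box, and the Fzd5 window holds 10 GC boxes, 2 of them overlapping, and no TGACG. Of the 12 called genes placed with astrocytes, 10 had a window in the table. TGACG was in 3 of these 10, GGGCGG in 6 and the full palindrome TGACGTCA in 0, while 20.8%, 35.7% and 1.79% of all 32851 windows hold them. These matches describe the letters and show no binding.

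The other astrocyte-placed genes that rose in NAc did so by smaller factors. Rimklb, an enzyme that ligates glutamate to N-acetylaspartate, was at 51.0, 61.1 and 104 CPM in NAc against 33.0, 40.0 and 48.9 CPM in PFC, without overlap (log2 fold change 0.80 ± 0.16, adjusted p = 0.0125). Timp3, a secreted inhibitor of metalloproteinases, was at 54.9, 74.8 and 133 CPM in NAc against 32.2, 49.0 and 94.3 CPM in PFC (0.76 ± 0.18, adjusted p = 0.0348). Its 2 highest PFC values were those of replicates 1 and 2, and the regions overlapped. Adcyap1r1, the receptor of the neuropeptide PACAP, was at 104, 154 and 239 CPM in NAc against 67.4, 96.9 and 196 CPM in PFC (0.68 ± 0.17, adjusted p = 0.0443). Fam198a, which encodes a secreted Golgi-associated protein, had medians of 33.1 CPM in NAc and 22.3 CPM in PFC (0.60 ± 0.15, adjusted p = 0.0457), and the phosphatase gene Ptpn13 had medians of 152 CPM in NAc and 118 CPM in PFC (0.37 ± 0.09, adjusted p = 0.0377), at a level per length below 2 times that of the receptor genes. The remaining 3 that rose, Gm10561, Gm973 and 2900052N01Rik, carry clone-based or predicted names.

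Astrocyte-placed genes that were lower in NAc were Chrdl1 and Mir124-2hg. Chrdl1 (chrX:143285674-143394262) was at 26.0, 33.2 and 40.5 CPM in NAc against 41.5, 64.7 and 82.6 CPM in PFC. The groups did not overlap, and the log2 fold change was −0.88 ± 0.19 (adjusted p = 0.0216). Its level per length was below 2 times that of the receptor genes, which averaged 0.396 FPKM over the control libraries. At 0.306 FPKM in NAc it was below that average, and at 0.564 FPKM in PFC above it. Its NAc level is therefore not distinguished from unspecific cover. Mir124-2hg, a host transcript of the neuronal microRNA miR-124, had medians of 14.4 CPM in NAc and 26.1 CPM in PFC (−0.65 ± 0.17, adjusted p = 0.0485). It followed the astrocyte list in these libraries (r = 0.754).

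Of the 42 astrocyte identity genes 0 passed the edgeR test and 8 had an unadjusted p under 0.05. Their log2 fold changes were positive for 35 and negative for 7, with a median of 0.35, against 0.00 over all genes. Without the background covariate the median of the list was 0.18. Slc4a4, a sodium bicarbonate cotransporter, came nearest to passing with 0.60 ± 0.19 (adjusted p = 0.15), and Mlc1, a membrane protein of astrocyte endfeet, had 0.81 ± 0.27 (adjusted p = 0.180). The glutamate transporter Slc1a3 had 0.53 ± 0.31, the water channel Aqp4 0.31 ± 0.33, the folate enzyme Aldh1l1 0.28 ± 0.13 and Atp1b2 0.25 ± 0.33, with adjusted p-values of 0.747, 0.958, 0.489 and 0.980. Ranbp3l, also on the list, ran lower in NAc, at 43 to 64.7 CPM against 54.3 to 90.1 CPM in PFC. The summed level of the list was 6003 to 17014.5 CPM in NAc and 3795 to 14097 CPM in PFC, a wide range within both regions. The list level was also high where the background was low among PFC libraries, with mean log2 CPM of 7.21 and 7.29 in replicates 1 and 2 against 5.65 to 6.82 in the other 4, so astrocyte content and dilution by unspecific cover cannot be told apart. In bulk libraries fewer cells of a type and less RNA per cell cannot be told apart. Of the 16 genes of transmitter uptake and recycling 0 passed (3 at an unadjusted p under 0.05), and of the 16 of water, potassium and coupling 0 passed (5 at an unadjusted p under 0.05). Abat, the enzyme that breaks down GABA, missed the threshold with 0.38 ± 0.10 (adjusted p = 0.0526). Among 29 secreted and matrix genes, C4b, Il33 and Timp3 rose and Chrdl1 fell. Of 15 genes listed as candidate regional astrocyte genes, Crym and Il33 rose and Chrdl1 fell, while Sparc (0.55 ± 0.16, adjusted p = 0.0809), Itih3 (0.92 ± 0.28, adjusted p = 0.133) and Igfbp2 did not pass. Igfbp2, an insulin-like growth factor binding protein, had no overlap, with 16.6 to 23.8 CPM in NAc against 25.8 to 45.2 CPM in PFC (−0.57 ± 0.18, adjusted p = 0.118).

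Because this level varied, the fit was repeated with the mean level of the astrocyte list as a further covariate, chosen after the data were seen. In this fit 372 of 38171 genes passed, and of the 297 genes called before 255 passed again. All 12 astrocyte-placed genes passed again, at median absolute log2 fold changes of 0.59, against 0.75 before. These genes were placed by their correlation with this same list level over the same libraries. The covariate therefore takes up part of their spread by construction, and their passing again is not separate support. Ednrb was at 0.94 (adjusted p = 1.28e-07), Timp3 at 0.55 (adjusted p = 0.00124), Mir124-2hg at −0.80 (adjusted p = 0.000319) and Chrdl1 at −0.99 (adjusted p = 0.00134). Crym was at 2.56 (adjusted p = 0.000486) and C4b at 1.34 (adjusted p = 0.0123). Of the list itself, which by construction centres near zero in this fit (median 0.05), 6 of 42 genes passed. The covariate is the mean of these 42 genes, so it takes up their common spread and sets members against each other. These 6 calls are therefore relative to the list's own mean and are not separate support for a region difference. Slc4a4 was higher in NAc at 0.37 and Mlc1 at 0.52, while the connexin Gjb6 was lower at −0.51, the mitochondrial glutamate carrier Slc25a18 at −0.44, the acyltransferase Lcat at −0.89 and Ranbp3l at −0.51.

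Transcription factors that pattern the forebrain differed in a few members. Six3, a homeobox factor of the ventral forebrain, was at 13.6, 19.1 and 22.6 CPM in NAc against 4.62, 8.28 and 12.7 CPM in PFC, without overlap (log2 fold change 1.09 ± 0.27, adjusted p = 0.0377). It was the 1 of 23 subpallial factors that passed, and it varied with no cell type list. Its neighbour on the opposite strand, Six3os1, rose alongside (1.19 ± 0.26, adjusted p = 0.0195), and since the strand setting of the counting is not given, reads of the pair cannot be told apart. Of 19 pallial factors 3 were lower in NAc, among them Neurod2 (−1.95 ± 0.37, adjusted p = 0.00712) and Neurod6 (−1.68 ± 0.35, adjusted p = 0.0152), which are also markers of cortical excitatory neurons. Neurod2 averaged 0.315 FPKM in NAc, below the receptor-gene average of 0.396 FPKM. The median log2 fold change was −0.37 for the pallial list and 0.03 for the subpallial list. Of 22 glial fate factors 0 passed (10 at an unadjusted p under 0.05), with a median of 0.37.

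Neuronal genes made up most of what was lower in NAc. Slc17a7, the vesicular glutamate transporter of cortical excitatory neurons, was at 5.57, 10.3 and 11.8 CPM in NAc against 13.4, 40.2 and 320 CPM in PFC (−2.40 ± 0.43, adjusted p = 0.00633). The regions did not overlap. Nptxr, a receptor of synaptic pentraxins, had medians of 12.3 CPM in NAc and 44.8 CPM in PFC (−2.24 ± 0.37, adjusted p = 0.00516). Nrgn, a postsynaptic calmodulin-binding protein, had medians of 7.52 CPM in NAc and 35.3 CPM in PFC (−2.23 ± 0.38, adjusted p = 0.00516). The next named genes were Cdk5r2, Neurod2, Neurod6, Snhg11, Egr1, Sprn and Nptx1, with log2 fold changes of −2.07 to −1.63. In NAc, Cdk5r2 averaged 0.375 FPKM and Neurod2 0.315 FPKM, below the receptor-gene average of 0.396 FPKM. Their NAc levels are therefore not distinguished from unspecific cover. Neurod2 had 0 counts in the shallowest NAc library, where 3 counts would amount to 3.19 CPM. Of the 20 pan-neuronal genes 10 were lower in NAc, with synaptophysin (Syp) at −1.37 ± 0.26 (adjusted p = 0.00710) and synapsin (Syn1) at −1.28 ± 0.27 (adjusted p = 0.0195). Of 16 cortical excitatory genes 6 were lower, among them Sv2b at −0.84 ± 0.18. The median log2 fold change was −0.75 for each of these lists. Of 10 immediate early genes, Egr1 (−1.65 ± 0.36, adjusted p = 0.0223) and Arc (−1.16 ± 0.29, adjusted p = 0.0481) were lower, and both varied with the pan-neuronal list. Summed pan-neuronal levels were 1342 to 2312 CPM in NAc and 1474 to 8088 CPM in PFC, and no gene of that list was at 0 in any control library. The top of the PFC range came from replicates 1 and 2, and without them the median log2 fold change was −0.55 for the pan-neuronal, −0.46 for the cortical excitatory and −0.22 for the immediate early list, the last against −0.61 with them. Summed cortical excitatory levels were 767 to 861 CPM in NAc and 912 to 2508 CPM in PFC, and summed immediate early levels 90.3 to 141 CPM in NAc and 97.4 to 524 CPM in PFC.

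Of 21 markers of striatal projection neurons 0 passed and 7 had an unadjusted p under 0.05. Their log2 fold changes were positive for 13 and negative for 8, with a median of 0.08. The signalling inhibitor Ppp1r1b (DARPP-32) had 0.77 ± 0.21 (adjusted p = 0.0706) and the opioid precursor Penk had 1.52 ± 0.46 (adjusted p = 0.119). Penk was at 4.56, 11.1 and 67.7 CPM in NAc against 2.84, 4.95 and 5.69 CPM in PFC, with the top value in NAc control replicate 3, the shallowest library. Pde10a, another of these markers, was highest in PFC control replicates 1 and 2, at 1153 and 1939 CPM, against at most 945 CPM in NAc. The 10 interneuron and cholinergic genes gave 0 calls and 3 unadjusted p-values under 0.05.

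Of 23 oligodendrocyte genes 4 were higher in NAc and 19 did not pass, with positive log2 fold changes for all 23 and a median of 0.89. Without PFC control replicates 1 and 2, 0 of the 23 passed, and the median was 0.79. Mobp, a myelin protein, was at 99.6, 318 and 603 CPM in NAc against 69.0, 128 and 297 CPM in PFC (1.36 ± 0.34, adjusted p = 0.0483). Bcas1, a marker of newly forming myelinating cells, was at 71.6, 106 and 146 CPM in NAc against 67.8, 70.4 and 77.6 CPM in PFC (0.67 ± 0.12, adjusted p = 0.00516). Nkx6-2, a homeobox factor of myelinating cells (1.28 ± 0.24, adjusted p = 0.00633), and the myelin lipid enzyme Fa2h (0.62 ± 0.15, adjusted p = 0.0369) also rose, as did Prr18 (1.24 ± 0.23) and Tppp3 (1.07 ± 0.23), which were placed with this list. Myelin basic protein (Mbp) had 1.13 ± 0.29 and did not pass (adjusted p = 0.0575). Summed levels of the list were 1185 to 6116 CPM in NAc and 968 to 3008 CPM in PFC, and no member was at 0. Il33, an alarmin released by astrocytes and oligodendrocytes, was at 45.0, 57.2 and 112 CPM in NAc against 28.5, 42.6 and 48.0 CPM in PFC (0.76 ± 0.17, adjusted p = 0.0231). It followed the oligodendrocyte list more closely than the astrocyte list. Nnat, an imprinted membrane protein, rose without a placement (1.5 ± 0.33, adjusted p = 0.0223), with medians of 11.6 CPM in NAc and 3.57 CPM in PFC. The regions overlapped, at 5.56 to 19.5 CPM in NAc against 2.13 to 15.5 CPM in PFC. Without the background covariate Nnat was at 1.02 and did not pass, and it passed in 9 of the 13 fits that left out 1 control library.

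Of 18 microglial genes 0 passed and 10 had an unadjusted p under 0.05. Their log2 fold changes had a median of −0.42, with summed levels of 237 to 389 CPM in NAc and 258 to 405 CPM in PFC. C1qb, C1qc, Aif1, Trem2 and Gpr34 were each at 0 in 1 control library. Endothelial, pericyte, ependymal, precursor and progenitor lists likewise gave 0 calls, and so did the 13 genes of mitochondrial DNA. CREB is a transcription factor activated by cyclic AMP and calcium, and of 8 genes of its family and coactivators 0 passed (2 at an unadjusted p under 0.05). Creb1 was at 42.7, 52.3 and 86.1 CPM in NAc against 41.4, 49.2 and 83 CPM in PFC (0.17 ± 0.13, adjusted p = 0.896), Crem had 0.14 ± 0.11 (adjusted p = 0.891) and Atf1 had −0.02 ± 0.09 (adjusted p = 1.00).

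Without PFC control replicates 1 and 2, 0 of 39591 genes passed, and 1776 (4.49%) had an unadjusted p under 0.05. In the same fit all 12 astrocyte-placed genes kept their direction with an unadjusted p under 0.05, and so did Crym, C4b and Six3. This was not particular to them: of the 296 called genes tested there, 296 kept their direction and 295 had an unadjusted p under 0.05. The called genes were chosen in a fit that shares most of these libraries, so their low p-values here are not separate support. When the neuronal and oligodendrocyte list levels entered as covariates, 0 genes passed and 1104 had an unadjusted p under 0.05. Of the 12 astrocyte-placed genes 3 then had an unadjusted p under 0.05, and their median absolute log2 fold change was 0.20, against 0.75 without these covariates. In that edgeR fit of 39 libraries Crym stood at 2.02 ± 0.54, Fzd5 at 0.95 ± 0.36, Chrdl1 at −0.97 ± 0.28 and Mir124-2hg at −1.06 ± 0.21 (SE), each with an unadjusted p under 0.05. Ednrb stood at 0.25 ± 0.30, Rimklb at 0.19 ± 0.17, Timp3 at 0.20 ± 0.22, Adcyap1r1 at 0.03 ± 0.18, Fam198a at 0.21 ± 0.19 and Ptpn13 at 0.14 ± 0.11 there, none with an unadjusted p under 0.05. The unplaced C4b at 0.59 ± 0.37 and Six3 at 0.30 ± 0.31 did not reach it either, and the median of the astrocyte identity list was −0.57. The part that carried-over RNA has in each gene's difference was not tested. The counts also rested on single libraries: 23 genes passed without PFC control replicate 2, 36 without NAc control replicate 4 and 97 without PFC control replicate 1. Across the 13 fits that left out 1 control library, Crym and Fzd5 passed in 13, C4b and Rimklb in 12 and Chrdl1 in 10. Ednrb passed in 8, Timp3 in 7, Six3 and Ptpn13 in 5, Adcyap1r1 in 4, Fam198a and Snhg11 in 3, Arc in 2, and Mobp and Mir124-2hg in 1.

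**Figure D4:**
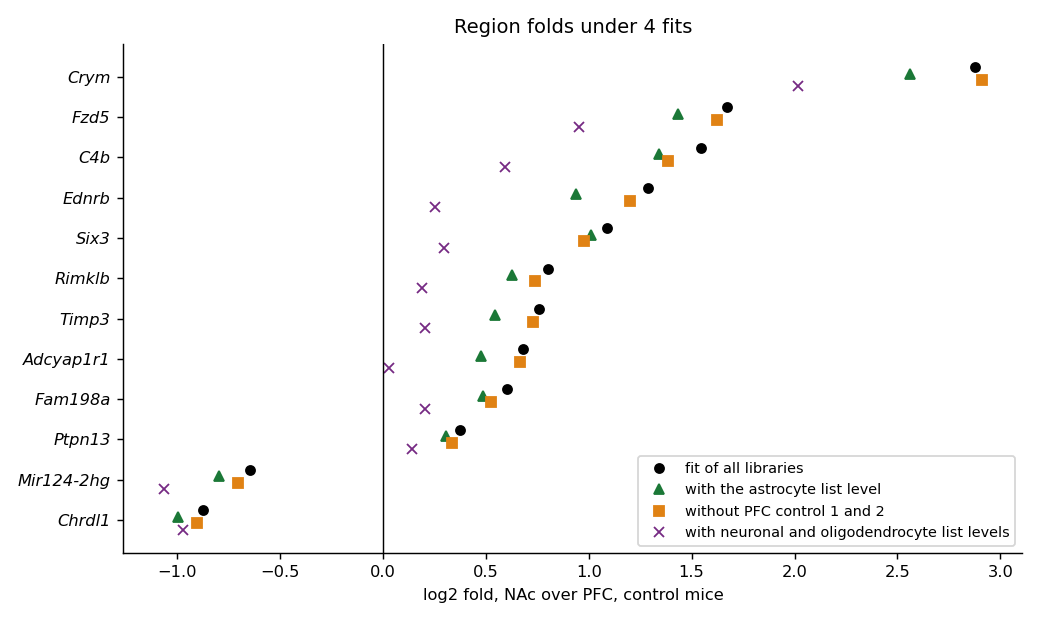
The log2 fold of NAc over PFC in control mice for 12 genes under 4 fits: all libraries, with the astrocyte list level as covariate, without PFC control replicates 1 and 2, and with neuronal and oligodendrocyte list levels as covariates. Crym stays between 2.02 and 2.91 and Chrdl1 between −0.99 and −0.88, while Ednrb is at 0.25 and Adcyap1r1 at 0.03 with the neuronal and oligodendrocyte levels.

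The region comparison was repeated in defeated mice, whose libraries are not among the 13. In the fit of all libraries 1 gene passed in susceptible mice (0.00262%), Acta2, an actin of vascular smooth muscle, which was lower in NAc (−1.12 ± 0.19, adjusted p = 0.0140), and 0 passed in resilient mice. At an unadjusted p under 0.05 there were 1416 and 1069 genes, 3.71% and 2.8%. The genes called in controls leaned the same way when each class of defeated mice was fitted alone. In susceptible mice 80 of the 82 control-higher genes that could be tested and 204 of 207 control-lower genes had the same sign, where 56.0% and 44.0% of all genes have that sign. In resilient mice these were 81 of 82 and 202 of 206, against 53.5% and 46.5%. Their median log2 fold change was 0.25 in susceptible and 0.28 in resilient mice for control-higher genes, and −0.36 and −0.47 for control-lower genes. The genes were chosen for their control folds, which that choice enlarges, so the sizes in defeated and control mice are not compared. Many of them vary together, 168 with the pan-neuronal and 39 with the oligodendrocyte list, so the sign counts are not counts of independent observations. The fit that called them also took its spread and background slope from all 39 libraries, those of defeated mice included. All 12 astrocyte-placed genes kept their sign in both classes. The positive lean of the 42 astrocyte identity genes was not seen again. Their median log2 fold change was −0.06 in susceptible and −0.01 in resilient mice fitted alone, against 0.02 over all genes in each.

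Crym was at 23.9, 82.6 and 108 CPM in NAc of susceptible mice against 13.1, 18.4 and 44.6 CPM in PFC of susceptible mice (log2 fold change 1.86 ± 0.45 in that class alone). In resilient mice it was at 24.1, 62.0 and 126 CPM in NAc against 14.1, 18.3 and 21.9 CPM in PFC (2.25 ± 0.43). In resilient mice the regions did not overlap, and in susceptible mice they overlapped through 1 PFC library, replicate 5, the next PFC value being 20.8 CPM. Chrdl1 was at 26.0, 33.9 and 43.0 CPM in NAc against 33.8, 89.1 and 152 CPM in PFC of susceptible mice (−0.89 ± 0.21) and at 25, 34.2 and 42.3 CPM in NAc against 41.3, 72.7 and 191 CPM in PFC of resilient mice (−0.88 ± 0.25). Fzd5 stood at 1.27 ± 0.25 in susceptible and 1.97 ± 0.50 in resilient mice. A test of whether the region difference itself depends on the class found 0 genes for susceptible and 0 for resilient against control mice (edgeR), and 1148 and 942 genes reached an unadjusted p under 0.05.

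**Figure D5:**
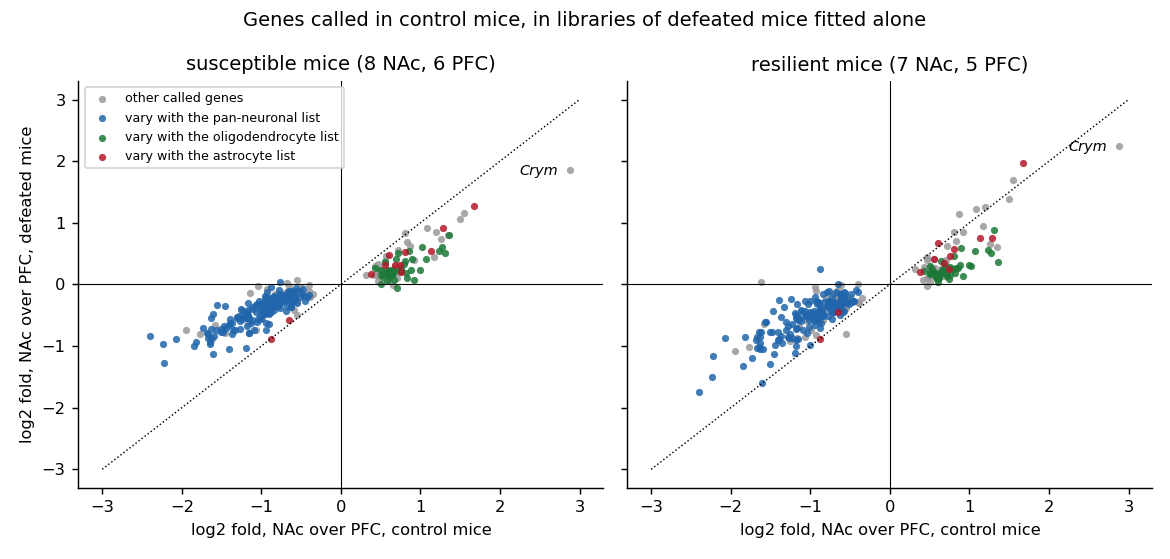
The log2 fold of NAc over PFC in control mice (x axis) against that in susceptible mice (left) and resilient mice (right) fitted alone, for the genes called in control mice; colours give the list a gene varies with and the dotted line is equality, and the genes were chosen by the values on the x axis, so distance from it is not read. Most points keep their sign, and Crym is at 1.86 and 2.25 on the vertical axes.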

How the data were processed

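The gene counts were deposited by the authors, and the submitters' processing notes list featureCounts and the build mm10. Aligner, annotation and strand setting are not given in the material used here. The deposited FPKM values divide those counts by whole gene spans: the implied length equalled the GENCODE M21 span within 1e-06 for 54229 of 54229 genes. Of the identifiers, 55141 matched a name and 260 did not. The table holds 55401 genes. Coordinates are those of mm10.

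One model of all 39 libraries in 6 groups, with background percent as covariate, was fitted with edgeR 4.0.16 in R 4.3.3 (TMM scaling, default count filter by group, robust quasi-likelihood test, Benjamini-Hochberg adjustment). The contrast was NAc control minus PFC control. For 27946 genes the level depended on background (adjusted p under 0.05). CPM values carry the TMM scaling. Standard errors are the log2 fold change over the root of the F statistic. DESeq2 1.42.0 and limma 3.58.1 served as alternatives, the FPKM on the log2(FPKM + 0.5) scale. Scripts were tested on simulated data.

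Named genes are, in each direction, the 10 largest folds among called genes with an average log2 CPM above 1, a mean FPKM at least 2 times that of the receptor genes and a symbol that is not predicted; up to 10 astrocyte-placed ones; genes of each of the 23 lists by smallest p; and 7 fixed genes. Some genes of that rule are summarised in counts, and Ptpn13, Six3os1, Acta2 and the list genes quoted from the fit with the astrocyte covariate were chosen after their values were seen. The region comparison, its covariate, the lists and the rules were chosen with earlier results of these data known. Near-identical, overlapping and antisense genes are uncertain. No pair of libraries held identical counts. Values of 1 listed gene are not reported here.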

Additional observations from a re-analysis of the deposited data

Results flagged for a closer look

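Within a region, 1 control library lay far from the others for several measures, with 17 flags over the 118 sets of values examined. The rule's rate of about 1 in 20 by chance holds for independent, normally distributed values. CPM of genes that vary together are not such values, so the chance rate here is not known. NAc control replicate 3, the shallowest library, had a microglial mean log2 CPM of 1.78 (others 2.82 to 3.26) and CPM of 36.5 for Nptxr, 0 for Neurod2, 6.45 for Sprn, 23.6 for Nptx1, 34.4 for Syp and 67.7 for Penk. NAc control replicate 6 had the highest C4b at 72.3 CPM (others 35.5 to 48.9) and Rimklb at 104 CPM (others 51.0 to 72.1), and NAc control replicate 4 the highest Sparc at 104 CPM. PFC control replicate 2 had the highest Crym at 27.3 CPM (others 14.0 to 16.5), Prr18 at 7.01 CPM, Nrgn at 236 CPM, Cdk5r2 at 32.0 CPM, Sprn at 50.7 CPM, Arc at 117 CPM and Adrb1 at 39.0 CPM.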

How the results depend on the processing

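The 297 genes of the control comparison became 1 without the background covariate, 101 in the 13 control libraries alone with it and 3 without it. Counts were 185 without a count filter, 757 with DESeq2, 645 with limma-voom, 103 and 94 on log2(FPKM + 0.5) and log2(FPKM + 0.1), and 2 on background-subtracted FPKM. They were 0 with neuronal and oligodendrocyte covariates, 0 without PFC control replicates 1 and 2 and 0 without replicates 1 and 2 of both regions, both chosen after the data were seen. Leaving out 1 control library gave 23 to 467. Susceptible libraries alone gave 0, and leaving out 1 resilient library gave 0 to 1 for resilient mice. The background difference ran from −3.04 to 5.90 percentage points.

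Same-numbered NAc and PFC control libraries did not all deviate together (correlations of −0.448 to 0.494, 1 of 6 pairs matching best), nor did those with consecutive sample numbers (−0.456 to 0.629, 2 of 6 pairs matching best), so these data give no pairing and do not settle whether some libraries share an animal. A replicate block by library number gave 526 genes and a block by consecutive sample numbers 215.

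Signs turned for some genes. With neuronal and oligodendrocyte covariates the log2 fold change was −0.0201 for Fa2h, 0.0600 for Sv2b, −0.17 for Aldh1l1, −0.58 for Aqp4, −0.53 for Slc1a3, −0.77 for Atp1b2, −0.0130 for Creb1, −0.0925 for Crem, 0.0546 for Atf1, −0.11 for Slc4a4, −0.0933 for Mlc1 and −0.32 for Itih3. Without the background covariate it was −0.0201 for Aqp4 and −0.0557 for Atp1b2, in the 13 libraries alone without it −0.0185 and −0.0536, and with the astrocyte covariate −0.0792 and −0.12. Leaving out 1 library gave −0.0393 to 0.41 for Aqp4, −0.0665 to 0.40 for Atp1b2 and −0.0563 to 0.0112 for Atf1. Atf1 was at 0.0175 and 0.0219 on the 2 FPKM scales, at 0.0374 without PFC control replicates 1 and 2 and at 0.0356 without replicates 1 and 2 of both regions. The cause of these changes was not tested. Depth limits low genes in NAc control replicate 3, where 3 counts are 3.19 CPM.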
